A study of Saccharomyces cerevisiae with 6 samples.

Results

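Yeast of mating type MATa was compared with yeast of mating type MATalpha among the 4 deletion arrays of a series of 6. Each array, a single-colour Affymetrix chip, was hybridised with total RNA of Saccharomyces cerevisiae cultures kept at 30 °C. No label states a mating type, so the arrays were chosen by a measured value of the readout itself. An array counted as MATa where the deposited log2 value of MFA1, which encodes a precursor of the pheromone a-factor, was above 10, and as MATalpha where it was below. The MATa arrays were, from the first experiment, the FHL1 deletion (12.90) and, from the second, the double deletion of FHL1 and IFH1 (12.84). The MATalpha arrays were the FHL1 deletion of the second experiment (7.86) and the double deletion of the first (7.89). The 2 WT arrays, with 7.20 in the second experiment and 7.24 in the first, were set beside them as a check for array batch. These values chose the arrays and carry no test. A second MFA1 probe set split the arrays the same way at lower values, 9.39 and 9.37 on the MATa arrays against 6.57 and 6.77 on the MATalpha arrays, and would not have passed the same threshold.

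All 4 deletion arrays lack FHL1, which encodes a forkhead-type protein bound at ribosomal protein gene promoters, and both double deletion arrays also lack IFH1, which encodes its coactivator. The sources used here give no strain background, medium or way in which the strains were built, and no label says that arrays of 1 genotype came from separate cultures. Within each genotype 1 MATa array was set against 1 MATalpha array, and the genotypes served as blocks. Since the sorting used a readout of the same contrast, every difference below is a description with no p-value. Its error is the SD of the differences in the 2 genotypes.

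In yeast, the MAT locus decides the mating type. The MATalpha allele encodes alpha1, an activator of MATalpha-specific genes, and alpha2, which with Mcm1 represses MATa-specific genes. The MATa allele encodes a1, which has no known role in haploid cells, so MATa-specific genes are on by default through Mcm1. Each type secretes its own pheromone and carries the receptor for the pheromone of the other. Both types share a pathway of a G protein, a kinase cascade and the transcription factor Ste12. Silent copies of both alleles lie at HML and HMR.

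Values were scaled by subtracting each array's median, and values under 5.63 on the log2 scale, the 10th percentile, were raised to that floor. The FHL1 transcript lay under the floor on all arrays, at deposited values of 3.18 and 2.89 on the MATa arrays, 2.67 and 2.66 on the MATalpha arrays and 5.02 and 4.91 on the WT arrays. IFH1 had deposited values of 5.40 and 4.96 where it was deleted, against 8.93 and 8.98 with FHL1 alone deleted and 8.57 and 8.31 in WT. The arrays were also linked in a way that no label explains. The MATalpha arrays had 859 exactly equal deposited values with each other and 502 and 573 with WT of the first experiment, while the MATa arrays shared 1 equal value with each other and 0 with WT of the second experiment. Across 4242 genes the MATa arrays correlated at 0.986 with each other, above the 0.951 and 0.966 within the FHL1 deletion pair and the double deletion pair. Among the deletion arrays, mating type cannot be told apart from whatever these shared values mark. The difference between the WT arrays (second minus first experiment), both with MATalpha markers and only the first linked to the MATalpha deletion arrays, served as a check. The MATalpha FHL1 deletion array also stood apart, with 30 genes at least 1 log2 unit below all 5 other arrays. No other array had more than 3 such genes. Most of the 30 genes, among them ACC1, UBP10, MSG5 and COX5A, lie on chromosome XIV, which held 281 of the 4242 tested genes. The cause of this grouping was not tested.

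All 7 MATa-specific genes measured had higher signal on both MATa arrays than on any other array. The share of all genes that split the arrays this way, in either direction, is not given here. MFA1 (YDR461W) had scaled log2 signals of 12.87 and 12.83 on the MATa arrays, given throughout in the order FHL1 deletion and double deletion, against 7.79 and 7.86 on the MATalpha arrays and 7.26 and 7.30 in WT, the second experiment before the first. MFA2 (YNL145W), the other a-factor precursor gene, had 13.19 and 12.85 on the MATa arrays, against 8.21 and 8.36 on the MATalpha arrays and 8.43 and 8.24 in WT. The mean difference was 5.02 ± 0.08 for MFA1, or 32.5-fold, and 4.74 ± 0.35 for MFA2, or 26.7-fold (SD, n = 2 genotypes). The second MFA1 probe set had a smaller mean difference of 2.74, with 1.12 between the WT arrays. For MFA1 the sorting fixed the separation of the groups. The groups did not overlap for MFA2 either, and for both genes the MATalpha and WT arrays lay close together. The floor was well below all of these values, so both pheromone genes gave some signal on MATalpha arrays. That signal was not traced to a source.

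The receptor and the exporter followed the same pattern. STE2 (YFL026W), the receptor for alpha-factor, had 9.83 and 9.69 on the MATa arrays and lay at the floor on both MATalpha arrays and both WT arrays, a difference of at least 17.6-fold. STE6 (YKL209C), the transporter that exports a-factor, had 9.87 and 9.61 on the MATa arrays, 6.54 and 6.72 on the MATalpha arrays and 6.28 and 6.58 in WT. Its mean difference was 3.10 ± 0.31, or 8.60-fold (SD, n = 2 genotypes).

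The remaining MATa-specific genes act outside the cell or on the signal. AGA2 (YGL032C), the adhesion subunit of a-agglutinin, had 8.86 and 8.53 on the MATa arrays and lay at the floor on the other 4 arrays, a difference of at least 8.36-fold. BAR1 (YIL015W), the protease that degrades alpha-factor, had 9.12 and 8.61 on the MATa arrays, 6.69 and 6.71 on the MATalpha arrays and 6.23 and 6.39 in WT. ASG7 (YJL170C), which acts on the G-protein signal, had the lowest signal and the smallest difference of the 7. It had 7.09 and 6.63 on the MATa arrays, 5.83 and 6.02 on the MATalpha arrays and 6.07 and 6.03 in WT, so its difference was 1.26 in the FHL1 deletion pair and 0.60 in the double deletion pair. STE2, AGA2, BAR1 and ASG7 were among the 1414 genes left out of counts over all genes because their mean over the 6 arrays was among the dimmest 25%.

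**Figure D1:**
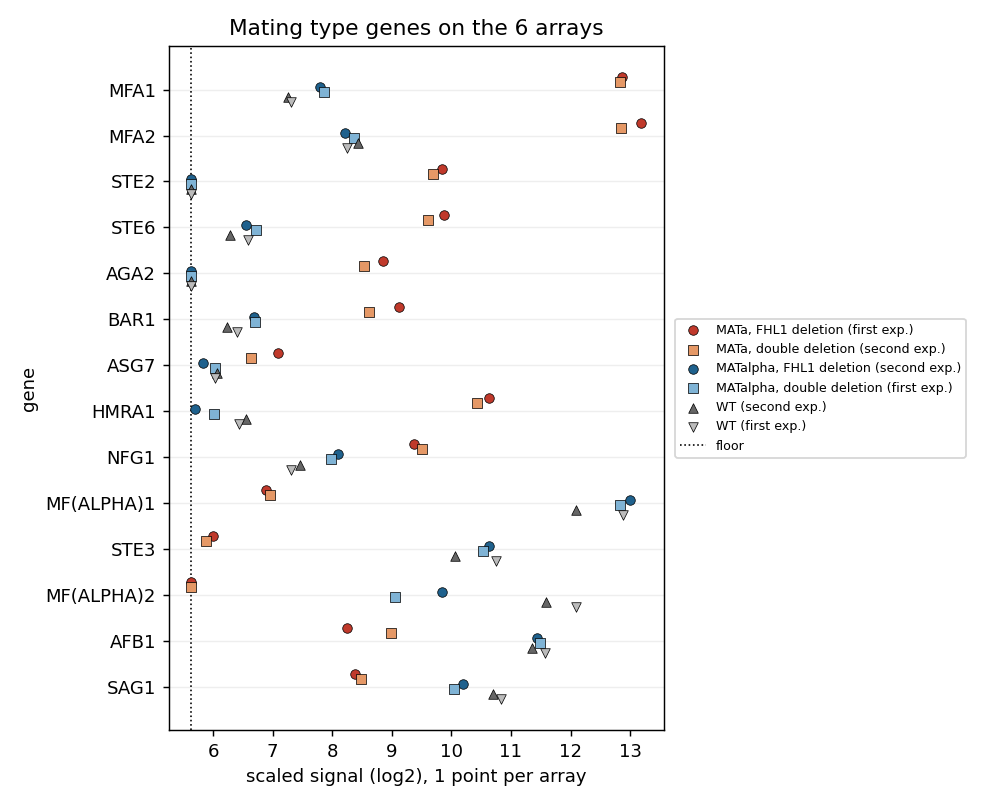
Scaled log2 signal of 14 genes (x axis), 1 point per array, with the floor as a dotted line at 5.63. The genes are mating type and cassette genes and NFG1, a gene counted in this contrast that is outside those lists. The 2 MATa arrays (red and orange) lie right of all others for the upper 9 genes and left of all others for the lower 5, and the WT arrays (grey) lie nearer to the MATalpha arrays (blue) than to the MATa arrays for all 14 genes.

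The 5 MATalpha-specific genes measured were all lower on both MATa arrays than on any other array. Over all tested genes, 38.0% were lower on the MATa array in both genotypes. The share of all genes that also lay below both WT arrays is not given here. MF(ALPHA)1 (YPL187W), the main alpha-factor precursor gene, had 6.89 and 6.96 on the MATa arrays, against 13.00 and 12.84 on the MATalpha arrays and 12.09 and 12.87 in WT. The difference of -5.99 ± 0.16 (SD, n = 2 genotypes), or 63.6-fold, had the largest size of any tested gene. STE3 (YKL178C), the receptor for a-factor, had 5.99 and 5.88 on the MATa arrays, 10.63 and 10.54 on the MATalpha arrays and 10.05 and 10.75 in WT. Its differences in the genotypes, -4.64 and -4.66, were nearly the same.

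The second alpha-factor gene varied more. MF(ALPHA)2 (YGL089C) lay at the floor on both MATa arrays and had 9.84 and 9.05 on the MATalpha arrays, a difference of at least 14.1-fold. Its WT values of 11.58 and 12.10 lay above both MATalpha deletion arrays. SAG1 showed this too, while MF(ALPHA)1, STE3 and AFB1 did not. AFB1 (YLR040C), which encodes a secreted a-factor barrier protein, had 8.25 and 8.98 on the MATa arrays, 11.44 and 11.48 on the MATalpha arrays and 11.35 and 11.57 in WT. SAG1 (YJR004C), the alpha-agglutinin gene, had 8.37 and 8.49 on the MATa arrays, 10.19 and 10.05 on the MATalpha arrays and 10.70 and 10.83 in WT. Their mean differences were -2.84 ± 0.48 for AFB1 and -1.69 ± 0.18 for SAG1 (SD, n = 2 genotypes). AFB1 and SAG1 thus kept signals far above the floor on the MATa arrays, unlike MF(ALPHA)2.

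Summed over the 7 MATa-specific genes, the log2 signal was 14.28 and 14.07 on the MATa arrays, 9.76 and 9.87 on the MATalpha arrays and 9.67 and 9.65 in WT. Summed over the 5 MATalpha-specific genes, it was 9.76 and 10.10 on the MATa arrays, 13.84 and 13.69 on the MATalpha arrays and 13.64 and 14.17 in WT. Since MFA1 sorted the arrays, the first sum was also taken over the other 6 genes, and was 13.59 and 13.27 on the MATa arrays, 9.34 and 9.46 on the MATalpha arrays and 9.37 and 9.34 in WT. No array was high for both lists. Most genes that mark diploid cells entering meiosis gave little signal. IME1, the only one bright enough to be tested, had 8.07 to 8.47 over the 6 arrays. Of 12 meiosis genes, 7 lay at the floor on every array, including IME2, SPO11 and SPO13, and the summed log2 signal of the list ranged from 9.79 to 9.99 over the 6 arrays. In bulk RNA, fewer cells of a type and less RNA per cell cannot be told apart.

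The genes of the mating type cassettes were read through probe sets that cannot separate MAT from the silent copies. HMRA1 (YCR097W), the annotated copy of the a1 gene, had 10.63 and 10.43 on the MATa arrays, against 5.70 and 6.01 on the MATalpha arrays and 6.56 and 6.43 in WT. The mean difference was 4.68 ± 0.36 (SD, n = 2 genotypes). It fell out of the count when the probe sets of a gene were averaged. Its other probe sets were near or at the floor, one with 6.65 and 6.39 on the MATa arrays and the floor elsewhere, and one at the floor on all arrays. A probe set that lists both MATALPHA1 and HMLALPHA1, the alpha1 copies, had 7.90 and 7.86 on the MATa arrays, 10.67 and 10.40 on the MATalpha arrays and 9.87 and 10.07 in WT. Another of the same listing lay at the floor on both MATa arrays and had 8.38 and 8.16 on the MATalpha arrays. For alpha2, whose probe sets also list HMRA2, the difference was smaller. One of them had 8.48 and 7.82 on the MATa arrays, against 9.50 and 9.38 on the MATalpha arrays and 8.74 and 9.31 in WT.

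A gene was counted as different over all 4242 tested genes where MATa and MATalpha arrays differed by at least 1 log2 unit (2-fold) in the same direction in both genotypes. By this rule 7 genes were higher (0.165% of those tested) and 8 lower (0.189%) on MATa arrays. No gene (0.0%) passed the same fold in opposite directions in the 2 genotypes. When the difference also had to remain at least 1 after that of the WT arrays was subtracted, 5 genes higher (0.118%) and 5 lower (0.118%) were left. The 5 higher genes were MFA1, MFA2, HMRA1, STE6 and NFG1, and the 5 lower genes were the measured MATalpha-specific genes. Between the WT arrays themselves, 10 genes (0.236%) were higher and 15 (0.354%) lower by the same fold in the second experiment. These counts describe the sorting as much as the genes, because MFA1 chose the arrays. HMRA1 and STE6, at 5.70 to 6.72 on the MATalpha and WT arrays, passed the filter on dim genes (a mean under 7.31 was left out) only through the MATa arrays. MF(ALPHA)1, STE3 and MF(ALPHA)2, at 5.63 to 6.96 on the MATa arrays, passed it only through the MATalpha and WT arrays. The mean was over all 6 arrays, of which only 2 were MATa. STE2, AGA2, BAR1 and ASG7 fell under it, so the filter also shaped the counts of higher and lower genes. NFG1 was the only counted gene beyond WT outside the lists of mating type and cassette genes.

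**Figure D2:**
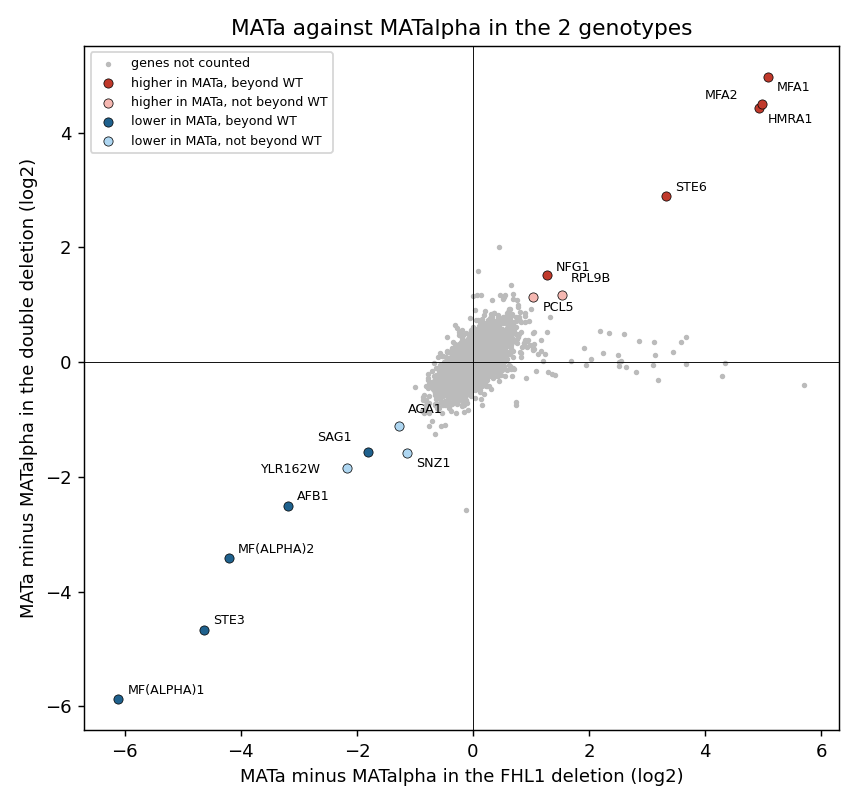
MATa minus MATalpha difference (log2) of 4242 genes in the FHL1 deletion pair (x axis) and the double deletion pair (y axis), 1 point per gene. The counted genes lie along the diagonal from MF(ALPHA)1 at -6.11 and -5.88 to MFA1 at 5.08 and 4.97, and a tail along the x axis holds genes low on the MATalpha FHL1 deletion array alone.

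NFG1 (YLR042C), a gene named for negative regulation of filamentous growth, had 9.37 and 9.51 on the MATa arrays, 8.09 and 7.99 on the MATalpha arrays and 7.46 and 7.30 in WT. The mean difference was 1.40 ± 0.17 (SD, n = 2 genotypes). The MATalpha deletion arrays lay between the MATa and the WT arrays for this gene. NFG1 was no longer among the tested genes when the dimmest 50% were left out.

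The 5 genes counted as different but not beyond WT were RPL9B and PCL5 on the higher side and YLR162W, SNZ1 and AGA1 on the lower. PCL5 (YHR071W), a cyclin of the Pho85 kinase that acts in turnover of Gcn4, had 9.58 and 9.55 on the MATa arrays, 8.55 and 8.41 on the MATalpha arrays and 9.37 and 9.28 in WT. WT therefore lay with the MATa arrays, although it carries MATalpha markers. RPL9B, a ribosomal protein gene, had 10.76 and 10.99 on the MATa arrays, 9.22 and 9.81 on the MATalpha arrays and 10.84 and 10.35 in WT, again with WT near MATa. RNA of its near-identical copy RPL9A may bind these probes, and RPL9A itself differed by 0.21 and 0.89. YLR162W had 7.11 and 7.16 on the MATa arrays, 9.28 and 9.00 on the MATalpha arrays and 7.35 and 9.69 on the WT arrays of the second and first experiment. Its difference between the WT arrays, -2.33, was as large as those between mating types, -2.17 and -1.85. SNZ1, a vitamin B6 synthesis gene, had 8.58 and 9.32 on the MATa arrays, 9.72 and 10.90 on the MATalpha arrays and 7.47 and 8.26 in WT.

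The values nearest the 2-fold rule were close on either side. Just inside lay PCL5, whose smaller difference was 1.04, and AGA1 at -1.11. Just outside lay GYP8 at 0.92 and FAR1 at -0.86.

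**Figure D3:**
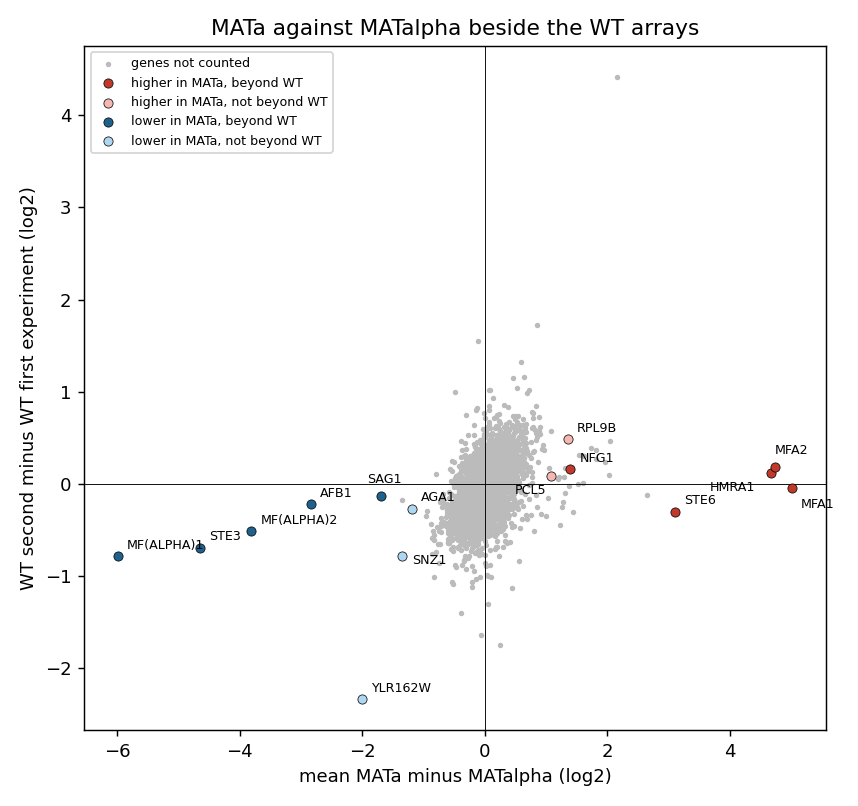
Mean MATa minus MATalpha difference (x axis, log2) against the difference between the WT arrays, second minus first experiment (y axis, log2), for 4242 genes. The mating type genes have WT differences between -0.78 and 0.19, while YLR162W lies at -2.01 (x axis) and -2.33 (y axis). On the x axis SAG1, at -1.69, lies less far out than YLR162W.

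Across all tested genes the differences in the 2 genotypes, which share no array, correlated at 0.63 (Pearson; Spearman 0.66), and at 0.51 when the 15 counted genes were left out. The difference between the WT arrays correlated at 0.38 with that in the FHL1 deletion pair and at 0.42 with that in the double deletion pair (n = 4242 genes). Genes are not independent replicates. The median gap between the 2 differences of a gene was 0.15, and 95% of genes had gaps under 0.51. A shared sign in both genotypes was thus common, and many genes also shared it with the WT difference.

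Genes of the shared pheromone pathway differed less than most of the mating type genes. AGA1, HO and FAR1 were all lower in MATa in both genotypes. AGA1, the anchor subunit of a-agglutinin that pheromone induces in both types, had 8.65 and 8.68 on the MATa arrays, 9.92 and 9.80 on the MATalpha arrays and 9.35 and 9.62 in WT. FAR1, the cell cycle inhibitor of the pheromone response, had 8.62 and 8.33 on the MATa arrays, 9.50 and 9.19 on the MATalpha arrays and 9.37 and 9.80 in WT. SST2, which turns off the G protein, had 8.50 and 8.26 on the MATa arrays, 9.15 and 9.01 on the MATalpha arrays and 8.78 and 8.95 in WT. For all 3 genes the MATa arrays were the lowest of the 6 and did not overlap with the rest. How common such a split was over all genes is not given here.

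Some cell fusion genes were also lower in MATa, at low signal. FUS1 lay at the floor on both MATa arrays, with 6.36 and 6.34 on the MATalpha arrays and 6.17 and 6.26 in WT. PRM1 had 6.68 and 6.66 on the MATa arrays, 7.35 and 7.39 on the MATalpha arrays and 7.12 and 7.48 in WT. FUS2 differed by -0.53 and -0.48, although WT at 6.04 and 5.87 lay with the MATa arrays. FIG2 differed by -0.30 and -0.28, with -0.41 between the WT arrays. Not all induced genes followed. PRM5 was higher on the MATa arrays by 0.46 and 0.38 and the cyclin gene PCL2 by 0.38 and 0.35, while KAR4 differed by -0.01 and 0.14 and KAR5 by 0.05 and 0.10. Of the 18 pheromone-induced genes, 10 were bright enough to be tested. Of these, 4 were higher in MATa in both genotypes and 4 lower in both, where 36.8% of all tested genes were higher and 38.0% lower in both. Only 1 of the 10, AGA1, was counted as different, beside 0.165% higher and 0.189% lower over all genes. The list medians were 0.02 and 0.03 against -0.01 and 0.00 over all genes.

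The signalling core was nearly level between the types. The G-protein genes GPA1 and STE4 differed by -0.23 and -0.22 and by -0.31 and -0.15, the scaffold gene STE5 by -0.03 and -0.12, the kinase gene FUS3 by -0.08 and 0.09 and STE12 by 0.23 and 0.23. For GPA1 and STE12 the WT arrays differed from each other by more, -0.53 and 0.34. Among the 17 tested haploid signalling genes, 0 were counted as different, beside 0.165% higher and 0.189% lower over all genes. In both genotypes 10 of the 17 were lower and 3 higher, beside 38.0% and 36.8% over all genes. HO, the endonuclease gene of mating type switching, had 7.07 and 7.01 on the MATa arrays, 7.73 and 8.26 on the MATalpha arrays and 8.97 and 9.32 in WT, so that the MATalpha deletion arrays lay between MATa and WT. RME1, a repressor of meiosis, was higher in MATa, with 10.50 and 10.25 against 9.97 and 9.75 on the MATalpha arrays and 10.23 and 10.10 in WT. The WT arrays lay between the MATa and the MATalpha arrays for RME1.

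**Figure D4:**
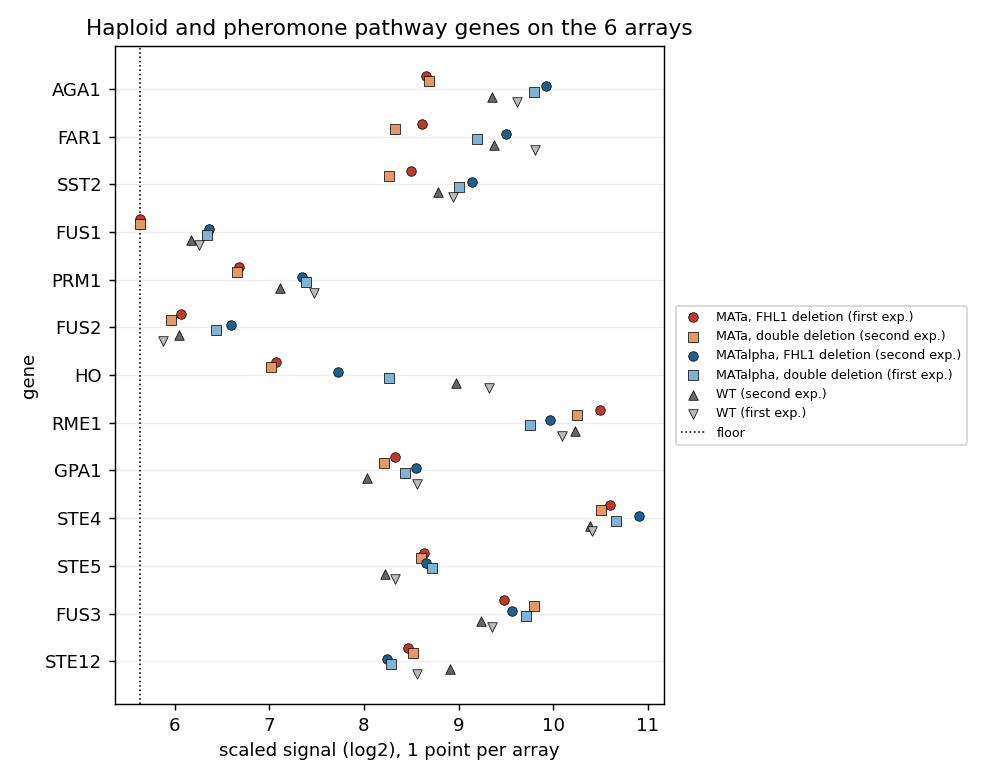
Scaled log2 signal of 13 haploid and pheromone pathway genes (x axis), 1 point per array, with the floor dotted. The MATa arrays (red and orange) are the lowest for AGA1, FAR1, SST2, FUS1, PRM1 and HO, while MATa and MATalpha arrays interleave for FUS3.

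Genes that mature the pheromones differed little between the types. AXL1, a protease of a-factor maturation, was higher by 0.23 and 0.31 beside -0.09 in WT, and the protease gene STE24 differed by -0.27 and -0.24 beside -0.11. The MATa arrays did not overlap with the other 4 for either gene, although the differences were small. The share of all genes with such a split is not given here. The farnesyltransferase subunit gene RAM2 differed by -0.18 and -0.22. The alpha-factor proteases KEX2 and STE13 differed by -0.05 and -0.13 and by -0.13 and -0.16. RCE1 differed by 1.92 in the FHL1 deletion pair and by 0.24 in the double deletion pair, and its 7.26 on the MATalpha FHL1 deletion array lay below 8.80 to 9.38 on the other 5 arrays. Of the 9 tested genes of this list, 0 reached 1.5-fold in both genotypes, beside 1.16% higher and 0.731% lower over all tested genes. Among regulators, MCM1 differed by -0.22 and -0.01, SIR2 by -0.13 and 0.16 and SIR3 by 0.07 and 0.16. TUP1, the corepressor that works with alpha2, differed by 0.65 and 0.39, with the WT arrays at 0.31. SIR1 differed by -0.41 and -0.35, with -0.34 between the WT arrays.

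The genes next to the counted genes in gene order were also read. Without the filter on dim genes 19 genes were counted as different, and 37 distinct genes on the arrays neighbour them in gene order. Of these neighbours, 24 passed the filter on dim genes and 5 of the 24 reached 1.5-fold in both genotypes, beside 1.89% of all tested genes. They were NFG1, AFB1, GYP8, SNO1 and RDN5-3, and the dim gene CMI8 reached it too. NFG1 and AFB1 neighbour each other with opposite signs, NFG1 higher and AFB1 lower in MATa, and each is itself a counted gene. GYP8, next to STE2, had 8.69 and 8.58 on the MATa arrays, 7.68 and 7.66 on the MATalpha arrays and 7.77 and 7.40 in WT. CMI8, next to MFA1, had 8.22 and 7.74 on the MATa arrays, 7.36 and 6.95 on the MATalpha arrays and 6.36 and 6.26 in WT. Both followed the direction of their MATa-specific neighbour. UIP4, next to MF(ALPHA)1, went the other way, being higher by 0.45 and 0.54 on the MATa arrays, where MF(ALPHA)1 is low. The probe sets do not state strand or overlap here, so transcripts that run into a neighbour cannot be told apart from the neighbour's own.

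YNL146C-A, counted as different only without the filter, is separated from MFA2 by 1 gene and had 7.24 and 7.01 on the MATa arrays, 5.63 and 5.96 on the MATalpha arrays and the floor in WT. The gene between them, YNL146W, differed by -0.54 and -0.02. RDN5-3, a ribosomal RNA gene of the repeated cluster and the nearest measured gene to YLR162W on one side at 16 positions, was higher by 1.32 and 0.79 beside 0.17 in WT. YIL014C-A, near BAR1, was higher by 0.74 and 0.38 beside 0.24. Both sides of STE3 differed by -0.24 to 0.13, and UBA1 beside STE6 by 0.09 and 0.05. SNO1, which shares its vitamin B6 role and its promoter region with SNZ1, was lower in MATa, with differences of -0.75 and -1.12 beside -0.29 in WT. Around the MAT locus itself, the genes within 6 positions of MATALPHA1 that passed the filter differed by -0.34 to 0.58, with PHO87 highest at 0.58 and 0.43 and 0.34 between the WT arrays.

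At 1.5-fold in both genotypes, 49 genes were higher (1.16%) and 31 lower (0.731%) on the MATa arrays, against 2 genes (0.0471%) that passed in opposite directions. Between the WT arrays 70 genes were higher (1.65%) and 111 lower (2.62%) at 1.5-fold. The WT difference had the same sign for 41 of the 49 and all 31, with medians of 0.36 and -0.47, and it was itself past 1.5-fold for 10 (0.236%) of the higher and 11 (0.259%) of the lower genes. Past the WT difference 17 (0.401%) and 6 (0.141%) were left. Of the 49 higher genes, 14 (28.6%) were non-coding RNA genes by the start of their names (SNR, RDN, SUF or YNC), beside 86 of all tested genes (2.03%), and all 14 were higher in WT of the second experiment, by 0.17 to 0.99. SNR70 differed by 0.91 and 0.86 beside 0.72 in WT, and SNR67 by 0.69 and 0.70 beside 0.99. The lower genes included SEC63 at -0.84 and -0.88 beside -0.76 in WT and RRP17 at -0.80 and -0.84 beside -1.01. Some measures of the RNA on the arrays also moved with this contrast. The 3' minus 5' difference of the SRB4 control probe sets was 2.39 and 1.89 on the MATa arrays, 3.09 and 2.70 on the MATalpha arrays and 1.52 and 2.25 in WT. The same measure of ACT1 did not split by mating type. It was 1.149 and 1.020 on the MATa arrays, 1.083 and 1.074 on the MATalpha arrays and 0.931 and 0.965 in WT. The median of 10 ribosomal RNA controls was 6.53 and 6.76 on the MATa arrays, 5.63 and 5.80 on the MATalpha arrays and 9.90 and 6.11 in WT. The part of these measures in the differences was not tested.

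Some genes of the broader set had small or opposite WT differences. AGP1, a general amino acid permease gene, was higher by 0.74 and 0.71 beside -0.01 in WT. OLE1, the fatty acid desaturase gene, had 11.13 and 11.22 on the MATa arrays, 10.48 and 10.42 on the MATalpha arrays and 11.79 and 11.95 in WT. GPP2, a glycerol phosphatase gene, was higher by 0.75 and 1.08 beside -0.33 in WT, and MYO2, a class V myosin gene, differed by -0.65 and -0.73 beside -0.11 in WT. These 4 genes were named after their values were seen.

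The lists of other cell functions held no genes counted by the 2-fold rule, beside 0.165% higher and 0.189% lower over all tested genes. Of 31 tested cell wall genes, 27 were higher on the MATa array in both genotypes and 1 lower, with medians of 0.21 in both genotypes beside 0.01 in WT. Over all tested genes 36.8% were higher and 38.0% lower in both genotypes. TIR2, a cell wall mannoprotein gene, was higher by 0.82 and 0.53 beside 0.36 in WT, CRH1, a chitin transglycosylase gene, by 0.57 and 0.53 beside -0.02, and the chitin synthase gene CHS3 by 0.48 and 0.43 beside 0.22. None of the 31 reached 1.5-fold in both genotypes, beside 1.16% higher and 0.731% lower over all tested genes.

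The medians of stress and respiration genes had opposite signs on the deletion and the WT arrays. Of 41 general stress genes, 19 were higher and 4 lower in both genotypes, beside 36.8% and 38.0% of all genes, with medians of 0.14 and 0.02 beside -0.30 in WT. MOH1 led them at 0.83 and 0.69, with 0.46 in WT. Of 54 respiration genes, 30 were higher and 10 lower by the same reading, with medians of 0.09 and 0.12 beside -0.24. The complex III gene COR1 differed by 0.60 and 0.51 beside 0.37 in WT and the complex II gene SDH4 by 0.53 and 0.50 beside 0.05. COX5A differed by 2.19 and 0.55, and it too was low on the MATalpha FHL1 deletion array, at 9.82 against 11.38 to 12.04 elsewhere. Of 30 chaperone genes 5 were higher and 19 lower, with medians of -0.12 and -0.13 beside -0.14 in WT, and the protein disulfide isomerase gene EUG1 differed by -0.84 and -0.83 beside -0.52 in WT.

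Strain marker genes and synthesis pathways were compared because laboratory strains of the mating types can carry different auxotrophies. LYS2 had 8.74 and 8.60 on the MATa arrays, 8.92 and 9.01 on the MATalpha arrays and 9.18 and 9.56 in WT, and MET17 had 11.92 and 11.41 on the MATa arrays, 12.06 and 11.24 on the MATalpha arrays and 12.57 and 12.53 in WT. HIS3 had 10.06 and 10.02 on the MATa arrays and 10.24 and 10.23 on the MATalpha arrays, all above WT at 6.99 and 7.13. LEU2, URA3, TRP1 and ADE2 differed between mating types by -0.31 to 0.52. The arginine permease gene CAN1 and the adenine synthesis gene ADE1 differed most of the 10 markers in both genotypes, by 0.55 and 0.74 beside 0.24 in WT and by -0.69 and -0.46 beside -0.34. None of the 10 was counted as different between MATa and MATalpha arrays, beside 0.165% higher and 0.189% lower over all tested genes. In the lysine list LYS1 and LYS12 were higher by 0.45 and 0.40 and by 0.48 and 0.40, and LYS20 differed by -0.50 and -0.56, with WT differences of 0.02 to 0.14. The sulfur list (24 tested) had medians of -0.02 and 0.12 and the list of other amino acids (44 tested) -0.00 and -0.01. In either list 0 genes were counted, beside the same shares over all genes.

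**Figure D5:**
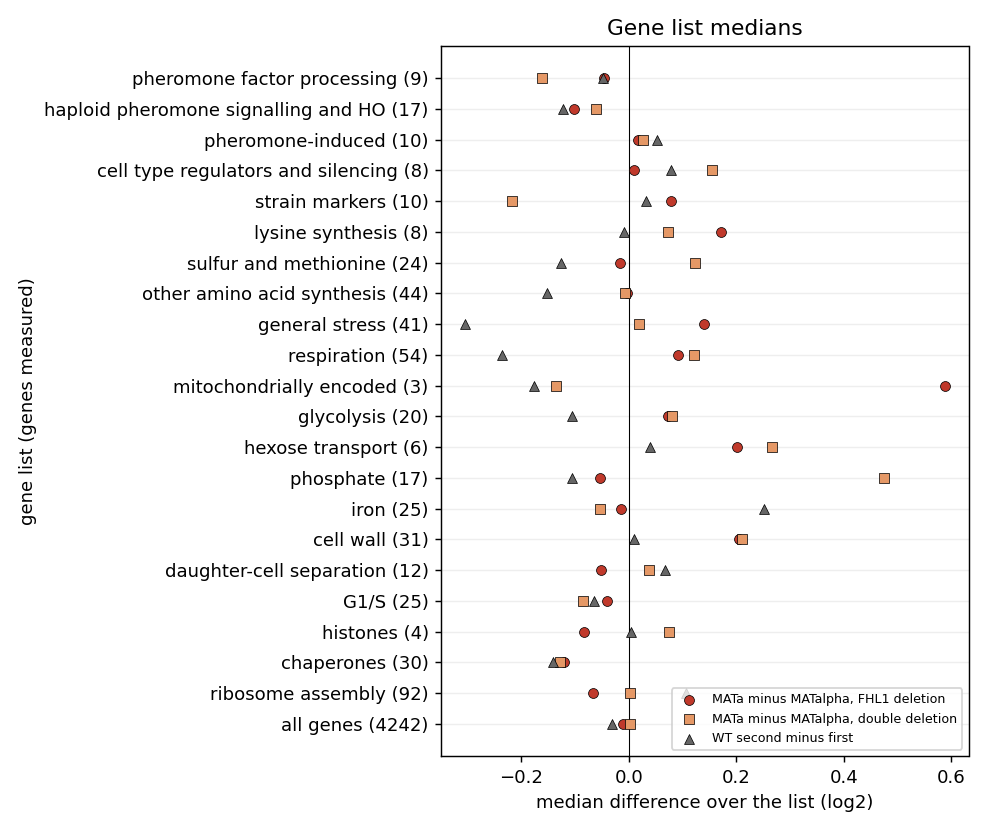
Median difference (log2, x axis) over the tested members of each gene list (number in brackets), with MATa minus MATalpha in the FHL1 deletion pair (circles) and the double deletion pair (squares) and WT second minus first (triangles). Cell wall lies at 0.21 in both genotypes beside 0.01 in WT, and general stress lies at 0.14 and 0.02 beside -0.30 in WT.

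Further lists had small or divided medians. Each is given as the FHL1 deletion, the double deletion and, last, the WT difference. Strain markers (10 tested) had 0.08, -0.22 and 0.03, lysine genes (8 tested) 0.17, 0.07 and -0.01 and regulators and silencing genes (8 tested) 0.01, 0.15 and 0.08. Pheromone processing genes (9 tested) had -0.05, -0.16 and -0.05, and haploid signalling genes (17 tested) had -0.10, -0.06 and -0.12. The 3 tested mitochondrially encoded genes had 0.59, -0.14 and -0.18. Hexose transport genes (6 tested) had 0.20, 0.27 and 0.04, glycolysis genes (20 tested) 0.07, 0.08 and -0.11 and iron genes (25 tested) -0.01, -0.05 and 0.25. Ribosome assembly genes (92 tested) had -0.07, 0.00 and 0.11, daughter-cell genes (12 tested) -0.05, 0.04 and 0.07, G1/S genes (25 tested) -0.04, -0.08 and -0.06 and histone genes (4 tested) -0.08, 0.07 and 0.00. The phosphate list (17 tested) was the most divided among those with more than 3 genes, at -0.05 in the FHL1 deletion pair and 0.48 in the double deletion pair. Within it SPL2, a phosphate regulator gene, had 8.07 and 9.16 on the MATa arrays, 7.62 and 7.16 on the MATalpha arrays and 9.85 and 9.78 in WT. PHO5, the acid phosphatase gene, had 8.31 and 9.75 on the MATa arrays, 8.22 and 8.16 on the MATalpha arrays and 11.15 and 11.27 in WT. The MATa double deletion array alone was high among the deletion arrays for these genes.

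Taken 1 genotype at a time, more genes passed 2-fold. In the FHL1 deletion 51 genes were higher (1.2%) and 9 lower (0.212%) on the MATa array, and in the double deletion 22 were higher (0.519%) and 14 lower (0.33%). Of the 51, 30 were genes at least 1 log2 unit lower on the MATalpha FHL1 deletion array than on every other array, and 0 of those 30 were counted in both genotypes. ACC1, the acetyl-CoA carboxylase gene, lay at the floor on that array and had 11.34 to 12.36 on the other 5. UBP10 had 6.48 there and 10.78 to 11.44 elsewhere, and MSG5, a phosphatase gene of the pheromone pathway, lay at the floor there and had 8.45 to 8.84 elsewhere. The count in the FHL1 deletion thus rests largely on that array, and without it the double deletion gives the only values. In the double deletion YDR034C-A, at 9.34 on the MATa array against 11.91 on the MATalpha array, differed by -2.57, while in the FHL1 deletion it had 12.08 on the MATa array and 12.20 on the MATalpha array.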

How the data were processed

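The authors deposited log2 expression values of 9335 probe sets on each of 6 arrays, a scale judged by the size of the values. How they were summarised and normalised is not given in the sources used here, nor is a genome build. The platform annotation named 1 gene for 6504 probe sets (5656 genes, symbols updated through RefSeq, assembly R64), several for 328 and none for 2503, of which 60 are array controls. A gene with several was read from the one of highest mean. Each array's median over the named probe sets was subtracted and the mean median added back, a floor was set at the 10th percentile, and the dimmest 25% of genes were left out of counts, which left 4242.

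Arrays were sorted by the deposited value of the MFA1 probe set with the highest mean. MATa minus MATalpha was taken within each genotype, and the WT difference as second minus first experiment. No test was run, since a readout of the same contrast sorted the arrays. The number of arrays limits the precision. Genes named are the markers, the members of the mating type lists, FHL1 and IFH1, marker genes of strains, the counted genes and leading members of 24 lists. Others, such as neighbours and genes low on 1 array, were chosen after their values were seen. Members and lists were chosen with earlier results of these data known. Of the list symbols, 3 matched no gene of the annotation. Steps ran in Python 3.11.15 with numpy 2.4.6 and pandas 2.3.3, and figures with matplotlib 3.10.9. The counting step was run on simulated data with independent noise on each array. That simulation left out shared differences between arrays, such as the correlation of 0.63 between the genotypes. It therefore cannot show how these shape the counts.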

Additional observations from a re-analysis of the deposited data

Results flagged for a closer look

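ENB1, which encodes a siderophore transporter, and OLI1, a mitochondrially encoded ATP synthase subunit gene, differed between the mating types in opposite directions in the 2 genotypes. For ENB1 the difference was 0.75 in the FHL1 deletion pair and -0.74 in the double deletion pair, with 9.43 and 9.10 on the MATa arrays, 8.68 and 9.84 on the MATalpha arrays and 10.16 and 9.45 in WT. For OLI1 it was 0.74 in the FHL1 deletion pair and -0.69 in the double deletion pair, with 10.86 and 11.67 on the MATa arrays, 10.12 and 12.36 on the MATalpha arrays and 12.58 and 12.76 in WT. With 1 array of each kind per genotype, these differences between genotypes were not tested.

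Among probe sets outside the gene counts, 1 with no named gene was lower on the MATa arrays beyond the WT difference, with a mean difference of -1.07 (8.94 and 9.62 on the MATa arrays, 10.07 and 10.62 on the MATalpha arrays, 10.20 and 10.18 in WT).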

How the results depend on the processing

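All 19 counted genes (15 tested and 4 left out as dim) kept their direction under the alternatives that gave them a value, and 0 reversed. Changing the fold or the filter, or leaving out 1 array, could not reverse a counted gene, since its 2 differences already share a sign. Median subtraction, quantile normalization, values as deposited and a floor at the 1st percentile gave the same 15 genes. With no genes left out as dim, 11 were higher (9 beyond WT), with STE2, AGA2, BAR1 and YNL146C-A added, and with the dimmest 50% left out 4 were higher (2 beyond WT), with HMRA1, NFG1, STE6 and YLR162W lost. Averaging the probe sets of a gene lost HMRA1 (1.86) and added BAR1. A floor at the 25th percentile gave 8 higher beyond WT, and counting every probe set on its own gave 15 higher and 10 beyond WT. A 1.5-fold rule gave 49 higher, 31 lower and 17 higher beyond WT, and a 4-fold rule 4 higher and 4 lower. Leaving out 1 array removes its genotype, and the single genotype left gave 22 to 51 higher, 9 to 14 lower, 11 to 40 higher beyond WT and 6 to 7 lower beyond WT.

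With the experiment number as a replicate block in place of genotype, 6 genes were higher and 7 lower (5 and 5 beyond WT), and RPL9B and SNZ1 were lost. Same-numbered arrays deviated from their genotype means in opposite ways across genes (Pearson -0.63). Crossing the numbers pairs the arrays by mating type, so as a block it left no contrast and gave no value. No detection calls were used, so low signal could be judged only against the floor.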

Other observations

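Of 2831 probe sets that name several genes or none, 12 were higher and 6 lower on the MATa arrays by at least 2-fold in both genotypes, and 0 and 3 were so beyond WT. Besides those of the mating type cassettes, probe sets of repeated elements were among them. A probe set listing 17 genes, among them the YRF1 helicase genes of telomeric Y' elements, had 9.59 and 11.12 on the MATa arrays, 8.55 and 10.08 on the MATalpha arrays and 10.81 and 10.64 in WT. It differed more between the genotypes than between the mating types. A probe set for 18S rRNA had 7.50 and 7.70 on the MATa arrays, the floor of 5.63 and 5.80 on the MATalpha arrays, and 10.19 and 8.02 in WT of the second and first experiment, so it differed between the WT arrays by 2.17, against 1.87 and 1.90 between the mating types.

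The mitochondrial gene COB, which encodes cytochrome b, and COX3, a cytochrome oxidase subunit gene, were left out as dim. COB had 7.34 and 7.49 on the MATa arrays, 6.46 and 6.46 on the MATalpha arrays and 7.44 and 6.53 in WT. COX3 had 7.67 and 7.69 on the MATa arrays, 6.91 and 6.90 on the MATalpha arrays and 7.55 and 7.08 in WT. For both genes WT of the second experiment lay with the MATa arrays and WT of the first nearer the MATalpha arrays.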
